A study of Homo sapiens with 6 samples.

Results

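The transcripts of 10 cytokine receptor chains were examined in the multiple myeloma cell line MM.1S, an established line of human origin, with and without enzastaurin. The chains are IL6R, IL6ST, IL10RA, IL10RB, IL2RG, IL21R, IL4R, IL15RA, IFNAR1 and IFNGR1. Members were chosen by name: every probe set that the platform annotation pairs with exactly 1 gene symbol, where that symbol is one of these 10. This gave 17 probe sets of 22215 non-control ones, for 10 of 11963 genes with such a probe set. Enzastaurin is an inhibitor of protein kinase C beta. The groups were MM.1S cells with enzastaurin for 3, 6 or 12 h (3 arrays) and untreated MM.1S cells taken at the same times (3 arrays). The labels give no dose, and all arrays come from a single cell line. Each treatment and time has 1 Affymetrix array, so the 3 time-matched ratios are the only repeat of the treatment.

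Cytokines of this group act through chains that lack a kinase of their own. A ligand draws its chains together, the Janus kinases (JAKs) bound to their tails become active, and STAT transcription factors are phosphorylated and move to the nucleus. Interleukin-6 is a growth and survival factor of myeloma cells. It binds the IL-6 receptor chain (IL6R), and the complex then signals through gp130 (IL6ST), which all cytokines of the IL-6 family share. Members of the gamma chain family (IL2RG with IL4R, IL21R or IL15RA) and of the class II family (IL10RA, IL10RB, IFNAR1, IFNGR1) work by the same scheme with other JAKs and STATs.

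Values are MAS5 intensities, the authors' linear signal per probe set, and log2 ratios of enzastaurin over untreated cells at the same time. A mean log2 ratio averages the 3 times and has a moderated standard error from limma (n = 3 pairs). Tests took in the brighter 50 percent of probe sets, those with a geometric mean of at least 63.3 over all 6 arrays. Of the 17 probe sets 14 passed this filter, for 8 of the 10 genes. Both probe sets of IL21R and the one of IFNAR1 lay below it and were not tested. All 9 plasma cell markers looked at passed the filter. In the 6 h and 12 h pairs SDC1, TNFRSF17 and IRF4 of these 9 fell (limma, adjusted p under 0.05), and the median log2 ratio of the 9 was -0.60 at 6 h and -0.64 at 12 h. Of 28 measured markers of T and NK cells, monocytes, stroma and unrelated tissues 25 did not pass the filter. The median geometric mean of the 28 markers was 28.0 and the highest was 214. Intensities up to that size are thus also read for genes of other cells. Tested receptor probe sets with a geometric mean below 214 were IL6ST 204864_s_at, IL6R 217489_s_at, IFNGR1 211676_s_at, IL15RA 207375_s_at and IL4R 203233_at. Apart from this, levels of different probe sets are not set against each other, since probes differ in affinity.

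Array quality differed between the groups. The mean log2 intensity of 6 ribosomal RNA control probe sets was 9.72 with enzastaurin against 5.51 untreated at 3 h. It was 5.70 and 5.31 with enzastaurin at 6 and 12 h, against 10.94 and 9.24 untreated. The log2 ratio of 3' to 5' ACTB probe sets was 2.0, 0.57 and 0.86 with enzastaurin at 3, 6 and 12 h, against 1.89, 1.16 and 1.60 untreated. For GAPDH it differed less at 6 and 12 h, with 0.23, -0.11 and 0.24 against 0.28, 0.23 and 0.30 untreated. A fit across the 3 times with the ribosomal RNA intensity as a further term is given below for some of the genes it moves. It also made other mean log2 ratios smaller, as for VEGFA (0.86 against 1.21), STAT3 (0.64 against 0.87), OAS1 (0.84 against 1.03) and CSF2RB (-0.41 against -0.59). Some it made larger, as for IL2RG (0.49 against 0.35). The difference in ribosomal RNA intensity had opposite signs at 3 h and later, so the term overlaps with the contrast between those times. The part of the array quality differences in the other fits was not tested. The median log2 ratio of all tested probe sets was -0.05, 0.07 and -0.16 at 3, 6 and 12 h.

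IL10RA, IL6ST and IFNGR1 had the largest log2 ratios among the tested chains. IL10RA was higher on every enzastaurin array than on any untreated one. IL6ST and IFNGR1 were higher with enzastaurin at 6 and 12 h on all 7 of their probe sets, while at 3 h these probe sets disagreed in sign or were lower. IL6R, IL2RG, IL10RB, IL4R and IL15RA differed by less than 2-fold at every time. No probe set of the 14 passed limma across all 3 times (adjusted p under 0.05), where 0.009 percent of the 11108 tested probe sets did, which is 1 probe set. At an unadjusted p under 0.05 there were 4 of the 14, against 621 of all 11108. The 4 are IL10RA and the IL6ST probe sets 204863_s_at, 211000_s_at and 212196_at, which measure 1 gene and are not separate cases.

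**Figure D1:**
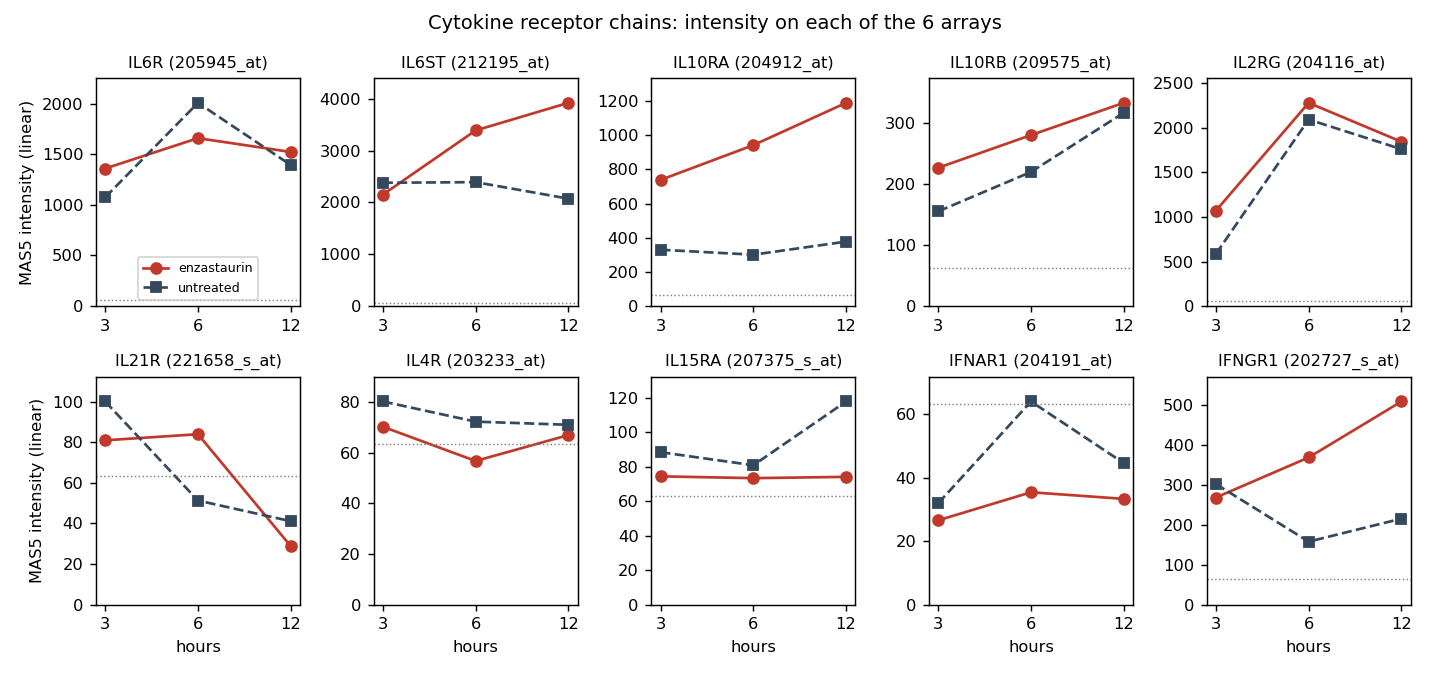
MAS5 intensity (linear axis from 0) of the brightest probe set of each of the 10 genes on the enzastaurin arrays (red circles) and the untreated arrays (dark squares) at 3, 6 and 12 h, 1 array per point. The dotted line marks the filter at a geometric mean of 63.3; the IL10RA curves stand apart at every time, and those of IL6ST and IFNGR1 part after 3 h.

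The interleukin-6 receptor was looked at first. IL6R, the chain that binds interleukin-6, had intensities of 1358, 1658 and 1522 with enzastaurin at 3, 6 and 12 h, against 1074, 2007 and 1393 in untreated cells (205945_at). The groups overlapped, and the highest value was that of untreated cells at 6 h. The mean log2 ratio was 0.06 (SE 0.24, adjusted p = 0.996 in limma). The second and dimmer probe set, 217489_s_at, had 120, 185 and 201 with enzastaurin, against 90.8, 162 and 128 untreated. Its log2 ratio was above 0 at each time, at 0.40, 0.19 and 0.65, and its mean of 0.41 had an SE of 0.30 (adjusted p = 0.987 in limma). The sign of the brighter probe set turned to -0.07 (SE 0.26) without the 3 h pair.

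IL6ST, the signalling chain gp130, is covered by 5 probe sets, which share their RNA and are not replicates. The brightest, 212195_at, had 2151, 3390 and 3922 with enzastaurin at 3, 6 and 12 h, against 2380, 2392 and 2073 untreated. Untreated cells were thus level, and the enzastaurin arrays stood above them at 6 and 12 h only. The mean log2 ratio was 0.43 (SE 0.23, adjusted p = 0.971 in limma), with 0.92 at 12 h.

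Probe set 212196_at had 399, 913 and 1136 with enzastaurin, against 508, 289 and 361 untreated. Here the untreated array at 3 h was above the enzastaurin one, and at the later times the order was the opposite with a 3.16-fold and a 3.14-fold difference. Probe set 204864_s_at had the same form, with 98.7, 215 and 376 with enzastaurin against 165, 98.6 and 99.6 untreated, and its log2 ratios were -0.74, 1.13 and 1.92. In both, the untreated cells were themselves lower at 6 and 12 h than at 3 h, by 0.81 and 0.49 log2 units for 212196_at, so the later ratios contain a difference between untreated arrays.

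The other two IL6ST probe sets were higher with enzastaurin at 3 h as well. 211000_s_at had 338, 361 and 746 with enzastaurin against 148, 282 and 319 untreated, and the groups did not overlap. 204863_s_at had 576, 948 and 1334 against 341, 561 and 604 untreated, with ratios of 0.76, 0.76 and 1.14. Over the 5 probe sets the log2 ratio at 3 h ran from -0.74 to 1.19, at 6 h from 0.36 to 1.66 and at 12 h from 0.92 to 1.92. The sign at 3 h therefore depended on the probe set, and at 6 and 12 h all 5 were higher. Their pairwise Pearson correlations over the 6 arrays ran from 0.55 to 0.96, a description of arrays that share 1 RNA per point. The adjusted p in limma across the 3 times ran from 0.581 to 0.987. With the ribosomal RNA term the mean log2 ratio of the brightest probe set was 0.28 (SE 0.22), against 0.43 without it.

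**Figure D2:**
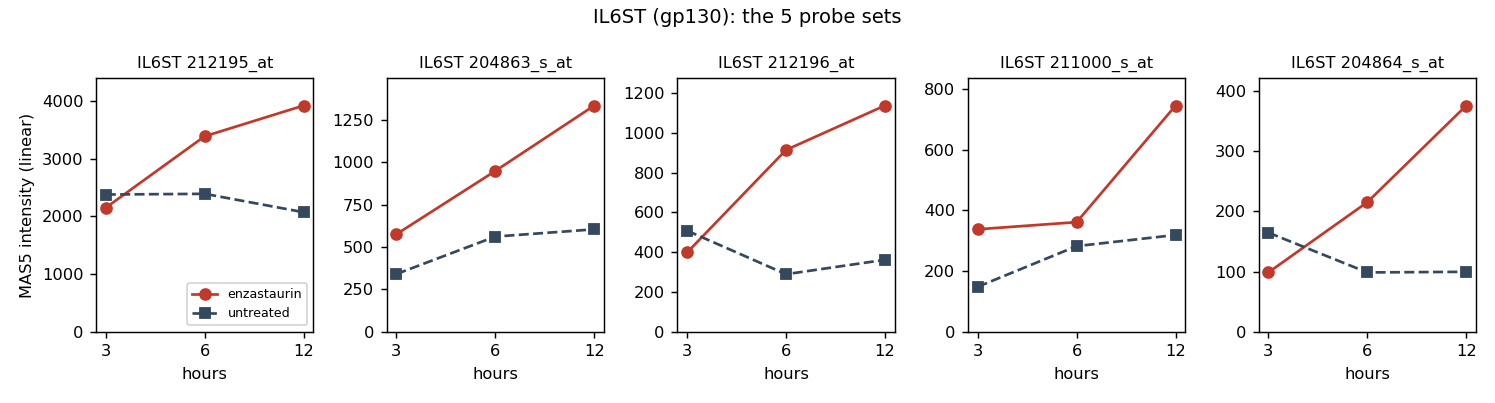
MAS5 intensity (linear axis from 0) of the 5 IL6ST probe sets at 3, 6 and 12 h, enzastaurin as red circles and untreated as dark squares, 1 array per point. At 3 h 3 of the 5 have the enzastaurin point below the untreated one, and at 12 h all 5 have it above.

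IL10RA binds interleukin-10 and recruits JAK1, and IL10RB completes the receptor. IL10RA had intensities of 738, 942 and 1189 with enzastaurin at 3, 6 and 12 h, against 330, 301 and 378 in untreated cells (204912_at). The lowest enzastaurin array was above the highest untreated one. The log2 ratios were 1.16, 1.65 and 1.66, and the mean of 1.49 (SE 0.29) is a 2.80-fold difference, which did not pass (adjusted p = 0.178 in limma). It was the largest mean ratio of the 10 genes. The ratio ran from 1.40 to 1.65 over 12 alternative settings. It passed in 2 of them. One was the fit with ribosomal RNA intensity as a covariate (1.40, SE 0.30, adjusted p = 0.00653 in limma). The other was the fit without the 3 h pair (1.65, SE 0.31, adjusted p = 0.00687 in limma). With the covariate the IL10RA ratio was smaller than in the main fit and its SE was not smaller. Over all tested probe sets 76 passed with the covariate and 352 without the 3 h pair, against 1 in the main fit. These 2 settings overlap, since the ribosomal RNA difference between groups was 4.22 at 3 h, against -5.24 and -3.93 at 6 and 12 h.

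IL10RB, which the receptors for interleukin-10, interleukin-22 and the lambda interferons share, had 227, 280 and 333 with enzastaurin, against 155, 220 and 317 untreated. It was higher with enzastaurin at each time, by log2 ratios of 0.55, 0.35 and 0.07, and the groups overlapped because both climbed with time. The mean log2 ratio was 0.32 (SE 0.30, adjusted p = 0.987 in limma).

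Promoter windows of IL10RA and IL6ST are shown because their probe sets had the receptor calls in the later pairs given further on, and because the windows differ in base composition. Each window holds 250 bases before the RefSeq start and 50 after it, on build GRCh38.p14, printed 5' to 3' along the gene. Capitals mark matches, on either strand, to the AP-1 site TGANTCA in IL10RA (chr11:117989695-117989994, plus strand) and to the GC box GGGCGG in IL6ST (chr5:55994914-55995213, minus strand).
IL10RA: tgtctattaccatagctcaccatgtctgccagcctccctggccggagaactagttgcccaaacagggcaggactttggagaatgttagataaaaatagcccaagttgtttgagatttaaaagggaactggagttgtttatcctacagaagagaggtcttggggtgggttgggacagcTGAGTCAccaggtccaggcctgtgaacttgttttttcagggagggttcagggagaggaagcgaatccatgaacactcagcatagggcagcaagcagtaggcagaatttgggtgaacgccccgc
IL6ST: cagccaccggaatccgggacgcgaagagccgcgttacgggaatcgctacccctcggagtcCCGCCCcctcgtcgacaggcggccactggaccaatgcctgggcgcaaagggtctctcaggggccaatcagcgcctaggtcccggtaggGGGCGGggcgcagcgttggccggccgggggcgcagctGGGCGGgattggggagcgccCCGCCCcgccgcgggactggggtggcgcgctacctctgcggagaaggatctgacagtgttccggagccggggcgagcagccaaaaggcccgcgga

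The AP-1 match of IL10RA begins 73 bases before the start, and 7.71 percent of all 35116 RefSeq windows of this length hold such a match. IL10RA has no GC box and 4 CpG dinucleotides, with a GC content of 50.3 percent. IL6ST has 4 GC boxes, 36 CpG dinucleotides and a GC content of 72.7 percent, where the median of all windows is 58.7 percent and 45.0 percent of them hold a GC box. Neither window holds the STAT site TTCNNNGAA (7.66 percent of all windows), the interferon response core GAAANNGAA (8.11 percent) or the E-box CACGTG (7.26 percent). Among all 15 windows of the 10 genes an AP-1 match was found for IL6R, IL10RA and IL15RA, and a STAT match for IL10RB and IL15RA. These are matches of letters only.

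The gamma chain family was represented by IL2RG, IL4R, IL15RA and IL21R, and none of its tested probe sets was called. IL2RG, the chain shared by the receptors for interleukins 2, 4, 7, 9, 15 and 21 and bound by JAK3, had 1069, 2278 and 1842 with enzastaurin, against 585, 2091 and 1759 untreated (204116_at). The 3 h arrays of both groups were the lowest, and the enzastaurin array was 1.83-fold higher there and 1.09-fold and 1.05-fold higher later. The mean log2 ratio was 0.35 (SE 0.25, adjusted p = 0.987 in limma). Between 12 h and 3 h over both treatments IL2RG differed by 1.19 log2 units (SE 0.31), which is 0.79 with enzastaurin and 1.59 without it. This did not pass (adjusted p = 0.9998 in limma), and no tested probe set of the array did (0 percent). At an unadjusted p under 0.05 there were 275 of 11108, with 3 of the 14 receptor probe sets. These 3 are IL2RG and, outside this family, 204863_s_at and 211000_s_at of IL6ST.

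IL4R, which binds interleukin-4, lay close to the filter at 70.2, 56.7 and 66.9 with enzastaurin, against 80.2, 72.2 and 71.0 untreated (203233_at). The enzastaurin arrays were below all untreated ones, by a mean log2 ratio of -0.21 (SE 0.31, adjusted p = 0.987 in limma), and the sign at 12 h turned from -0.08 to 0.10 with equal medians of the tested probe sets. IL15RA, which binds interleukin-15 and presents it to neighbouring cells, had 74.5, 73.5 and 74.2 with enzastaurin, against 88.5, 80.9 and 118 untreated (207375_s_at). Here too the groups did not overlap, and the mean log2 ratio of -0.35 (SE 0.31) did not pass (adjusted p = 0.987 in limma).

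IL21R, the interleukin-21 receptor chain, had 80.9, 83.9 and 28.8 with enzastaurin, against 100, 51.3 and 41.1 untreated on its brighter probe set (221658_s_at). The values of both groups were lowest at 12 h, and the order of the groups turned at 6 h. The dimmer probe set 219971_at had 28.2, 29.1 and 8.75 with enzastaurin, against 60.5, 17.8 and 30.7 untreated. Both probe sets had a log2 ratio of 0.71 at 6 h and ratios below 0 at 3 and 12 h. They were below the filter, at intensities also read for markers of other cell types.

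The interferon receptors were represented by the chains IFNAR1 and IFNGR1. IFNAR1, part of the receptor for interferons alpha and beta, had 26.6, 35.4 and 33.3 with enzastaurin, against 31.9, 64.0 and 44.6 untreated (204191_at). It was below the filter and lower with enzastaurin at each time, with a mean log2 ratio of -0.51 that was not tested.

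IFNGR1, the ligand-binding chain for interferon gamma, had 268, 368 and 508 with enzastaurin at 3, 6 and 12 h, against 302, 158 and 215 untreated (202727_s_at). The untreated array was the higher one at 3 h, and the enzastaurin array was 2.33-fold and 2.36-fold higher at 6 and 12 h. Probe set 211676_s_at had 81.7, 124 and 195 with enzastaurin, against 110, 52.0 and 72.1 untreated, and both probe sets correlated at 0.99 over the 6 arrays. Across the 3 times the mean log2 ratios were 0.76 (SE 0.35, adjusted p = 0.897 in limma) and 0.75 (SE 0.39, adjusted p = 0.955 in limma). Untreated cells were lower at 6 h than at 3 h by 0.94 and 1.08 log2 units, so a part of the later ratios lies between untreated arrays. The same held for 212196_at and 204864_s_at of IL6ST, but not for 204863_s_at and 211000_s_at. With the ribosomal RNA term the mean log2 ratio of 202727_s_at was 0.50 (SE 0.32), against 0.76 without it.

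**Figure D3:**
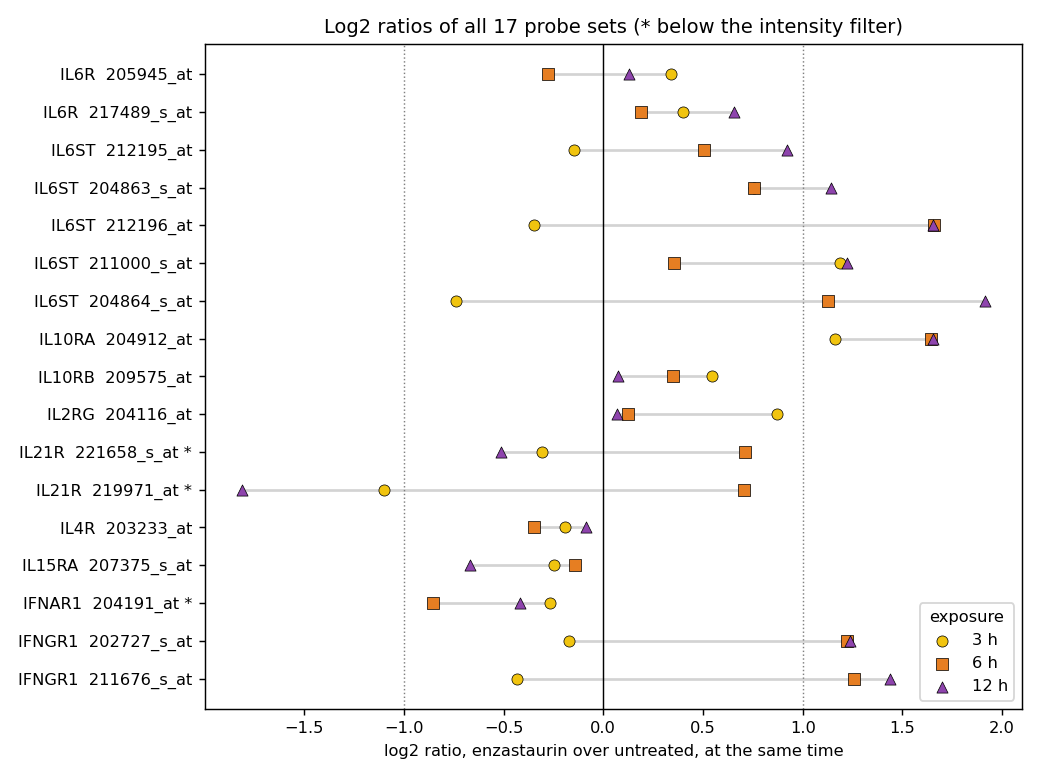
Log2 ratio of enzastaurin over untreated cells for all 17 probe sets, at 3 h (circles), 6 h (squares) and 12 h (triangles), 1 pair of arrays per point, with a grey line from the lowest to the highest. Dotted lines mark 2-fold; at 12 h 7 of the 14 tested probe sets, of IL6ST, IL10RA and IFNGR1, lie past it to the right.

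Counted by time, 2 of the 14 tested probe sets were at least 2-fold higher with enzastaurin at 3 h (IL10RA and 1 of IL6ST), where 2.13 percent of all tested probe sets were. At 6 h there were 5 of 14, against 5.87 percent of all, and at 12 h 7 of 14, against 4.38 percent. They belong to IL10RA, IL6ST and IFNGR1 at both times, so 14 probe sets are not 14 separate cases. None of the 14 was at least 2-fold lower at 3, 6 or 12 h, where 3.06, 3.61 and 9.92 percent of all were. The 3 enzastaurin arrays lay above all 3 untreated ones in 2 of the 14 (IL10RA and IL6ST 211000_s_at; 3.53 percent of all) and below them in 2 (IL4R and IL15RA; 6.93 percent of all). With the brightest probe set of each of the 8 tested genes, the median of the mean log2 ratios was 0.34 and 6 of 8 were above 0. Over all tested probe sets the median was -0.04 and 44.2 percent were above 0.

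The change of the effect with time was tested as a slope, in log2 units for each doubling of the hours. It passed for 1 of the 14 probe sets, IL6ST 204864_s_at, where 1.63 percent of all tested probe sets passed. Its slope was 1.33 log2 units (SE 0.38, adjusted p = 0.0361 in limma), and the slopes of the other 4 IL6ST probe sets ran from 0.02 for 211000_s_at to 1.0 for 212196_at. The slopes of IFNGR1 were 0.71 (SE 0.38, adjusted p = 0.481 in limma) and 0.93 (SE 0.40, adjusted p = 0.285 in limma), and that of IL10RA was 0.25 (SE 0.36, adjusted p = 0.872 in limma). The one slope call was lost in each of the 5 alternative settings tried for it, and in 1 of these the probe set was not among those tested.

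When only the later pairs, 6 h and 12 h, were fitted (n = 2 pairs), 3 of the 14 rose, against 1.39 percent of all, and 0 fell, against 1.78 percent of all. IL10RA rose by 1.65 log2 units (SE 0.31, adjusted p = 0.00687 in limma). IL6ST rose by 1.66 on 212196_at (SE 0.31, adjusted p = 0.00687 in limma) and by 1.52 on 204864_s_at (SE 0.35, adjusted p = 0.0251 in limma). The other IL6ST probe sets did not pass. The brightest, 212195_at, had 0.71 (SE 0.22, adjusted p = 0.109 in limma). 204863_s_at had 0.95 (SE 0.30, adjusted p = 0.107 in limma) and 211000_s_at had 0.79 (SE 0.34, adjusted p = 0.260 in limma). The 2 IFNGR1 probe sets had 1.23 (SE 0.32) and 1.35 (SE 0.36), both with an adjusted p of 0.0524 in limma. These calls depended on the setting. IFNGR1 passed in 4 of 5 alternatives on 202727_s_at and in 3 of 4 on 211676_s_at. IL6ST 212195_at passed in 2 of 5, 204863_s_at in 2 of 4 and 211000_s_at in 0 of 4. IL6ST 204864_s_at did not pass without the intensity trend (adjusted p = 0.051 in limma), while IL10RA passed in 5 of 5 and 212196_at in 4 of 4. In these pairs the ribosomal RNA intensity and the ACTB 3' to 5' ratio were lower with enzastaurin at both times, and 3 of 9 plasma cell markers fell. Their part in the receptor values of these pairs was not tested. The errors rest mainly on a prior of 14.1 degrees of freedom from other probe sets, against 1 residual degree of freedom.

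The partner chains and the rest of the pathway were followed through 7 gene lists, each gene by its brightest probe set. Of 30 other receptor chains 26 had a probe set, 9 passed the filter, and none passed the test in either direction across the 3 times or in the later pairs. The median of their mean log2 ratios was 0.18. IFNGR2, which pairs with IFNGR1, had 880, 1305 and 1047 with enzastaurin, against 836, 893 and 1020 untreated. IFNAR2, which pairs with IFNAR1, had 947, 1403 and 1245 against 1126, 1195 and 851 untreated. Both pairs of groups overlapped.

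Among the 9 chains that passed the filter, the largest mean ratios were those of IL12RB1 (-0.75), EPOR (0.75), CSF2RB (-0.59) and CRLF2 (0.57). CSF2RB, the chain shared by the receptors for interleukin-3, interleukin-5 and GM-CSF, had 978, 798 and 679 with enzastaurin, against 930, 1404 and 1377 untreated. The 4 other EPOR probe sets, all below the filter, had mean ratios from -0.21 to 0.53. Among chains that pair with gp130 or bind its ligands, LIFR, OSMR and IL11RA lay below the filter, with geometric means of 8.81, 16.8 and 56.9. IL27RA, the partner of gp130 for interleukin-27, passed the filter with 74.8, 87.5 and 69.3 with enzastaurin, against 68.7, 163 and 103 untreated. CNTFR, which binds ciliary neurotrophic factor, passed it with 83.8, 143 and 122, against 81.5, 94.4 and 91.1 untreated. The groups overlapped for both, and neither was called.

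Of 19 measured ligands 17 lay below the filter, IL6 at 42.1 to 56.7 and IL10 at 4.41 to 41.7 on the 6 arrays. The 2 that passed it, IL11 and IL15, had mean log2 ratios of 0.04 and 0.12 and were not called. Sign and size of these 2 depended on the pair left out.

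Among JAKs and STATs, 8 of 10 measured genes passed the filter, and none was called across the 3 times. JAK1, which all the receptor families here use, had 1355, 1565 and 1315 with enzastaurin, against 1326, 1416 and 1366 untreated, and the groups overlapped. STAT3, which transmits interleukin-6 and interleukin-10 signals, had 253, 548 and 761 with enzastaurin, against 250, 267 and 261 untreated. Untreated cells were level, and enzastaurin cells stood apart at 6 and 12 h. In the later pairs STAT3 rose by 1.29 log2 units (SE 0.33, adjusted p = 0.0434 in limma) and by 1.75 on its second probe set (SE 0.33, adjusted p = 0.00755 in limma). STAT4 rose by 3.16 in the same pairs (SE 0.33, adjusted p = 9.67e-05 in limma), with 263 against 456 untreated at 3 h in the other direction. With the ribosomal RNA term the mean ratio of STAT4 across the 3 times was 1.11, against 1.84 without it. STAT5A had a mean log2 ratio of -0.54 and IRF9 one of 0.33, neither called.

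Of the inhibitors 10 of 17 measured genes passed the filter. PTPN6, a phosphatase that acts on JAKs, had 600, 196 and 82.7 with enzastaurin, against 335, 755 and 793 untreated. It fell by 2.60 log2 units in the later pairs (SE 0.37, adjusted p = 0.00108 in limma), while at 3 h its ratio was 0.84. Its mean ratio across the 3 times was -0.85 with the ribosomal RNA term, against -1.46 without it. SOCS3, which binds gp130 and blocks its JAKs, had 129, 157 and 175 with enzastaurin, against 181, 195 and 148 untreated, and was not called. PIAS1 (-0.33) and PTPN2 (0.23) were not called either, and the second tested probe set of PTPN2 had the opposite sign (-0.32).

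ADAM10 and ADAM17, proteases that shed IL6R from the cell surface, had mean log2 ratios of -0.38 and -0.10, and RHBDF2, which guides ADAM17 to the surface, had -0.61. None of the 3 was called, and the sign of ADAM17 differed on its second tested probe set (0.26).

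Targets of STAT3 and STAT6 signalling moved both ways. Of 12 tested genes none was called across the 3 times. In the later pairs VEGFA rose by 1.86 (adjusted p = 0.00522 in limma) and MYC fell by 1.31 (SE 0.33, adjusted p = 0.0397 in limma). The MYC log2 ratios were -0.66, -0.53 and -2.09 at 3, 6 and 12 h, so its fall lay mostly in the 12 h pair. VEGFA, a growth factor for vessels, had 409, 602 and 929 with enzastaurin against 436, 204 and 207 untreated on this brightest probe set. In the later pairs 2 dimmer tested probe sets were not called. They had 0.06 (SE 0.35, adjusted p = 0.954 in limma) and 0.68 (SE 0.40, adjusted p = 0.444 in limma). Across the 3 times their mean log2 ratios were 0.29 and 0.50, against 1.21. CEBPB had a mean ratio of 0.95 (SE 0.34, adjusted p = 0.736 in limma) and JUNB one of 0.69 (SE 0.32, adjusted p = 0.897 in limma). The median of the list was 0.07.

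Interferon targets were mixed as well. Of 25 measured genes 13 passed the filter, none was called across the 3 times, and the median of the mean log2 ratios was -0.18. OAS3, an antiviral enzyme, had 207, 270 and 367 with enzastaurin, against 63.5, 102 and 121 untreated. OAS1 had 317, 701 and 840 against 250, 280 and 315 untreated. The 3 enzastaurin arrays lay above all 3 untreated ones in 2 of the 13 genes (OAS3 and, narrowly, OAS1), against 3.53 percent of all tested probe sets. They lay below them in 1 (GBP1), against 6.93 percent of all. In the later pairs OAS3 rose by 1.51 (SE 0.33, adjusted p = 0.0202 in limma) and OAS1 by 1.37 (SE 0.32, adjusted p = 0.0265 in limma). GBP1, a GTPase induced mainly by interferon gamma, had 83.8, 155 and 86.3 with enzastaurin, against 406, 176 and 255 untreated, a mean ratio of -1.34 (SE 0.39, adjusted p = 0.484 in limma). Its log2 ratios at 3, 6 and 12 h were -2.28, -0.18 and -1.56. On its second tested probe set they were -2.68, -0.24 and -0.36, so the difference there lay mostly in the 3 h pair. The mean on that probe set was -1.09 (SE 0.44, adjusted p = 0.823 in limma). CXCL10, a chemokine of the interferon gamma response, stood at -0.58 at 3 h, -0.019 at 6 h and -1.91 at 12 h on the log2 ratio scale. The CXCL10 mean of -0.83 (SE 0.37, adjusted p = 0.888 in limma) was -0.30 without the 12 h pair. With the ribosomal RNA term OAS3 (1.61, SE 0.32, adjusted p = 0.00164 in limma) and the brightest probe set of GBP1 (-1.63, SE 0.32, adjusted p = 0.00181 in limma) passed across the 3 times. In that fit 76 of all tested probe sets passed, against 1 without the term.

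**Figure D4:**
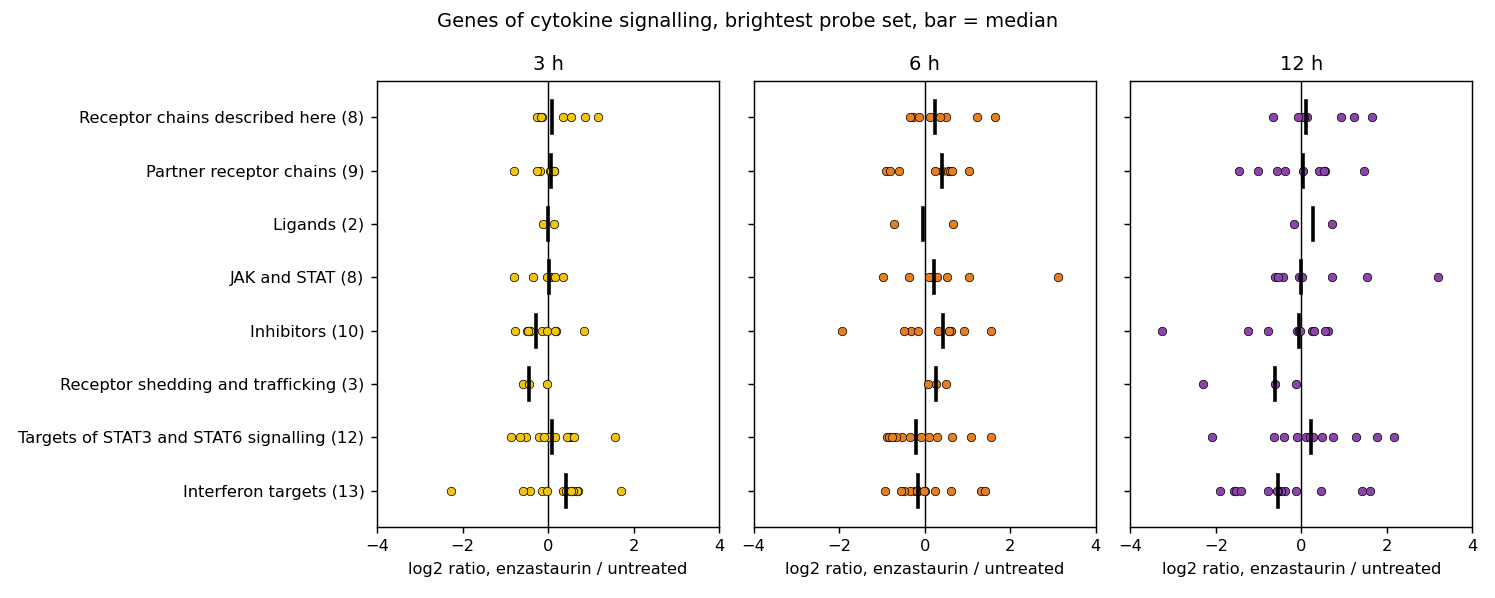
Log2 ratio of enzastaurin over untreated cells at 3, 6 and 12 h for tested genes of cytokine signalling, 1 point per gene (brightest probe set), with a black bar at the median of each list and the number of genes in brackets. Medians stay between -0.61 and 0.43, and STAT4 (far right) and PTPN6 (far left) stand apart at 6 and 12 h.

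The genes with the pattern most like a receptor chain were named by Pearson correlation of log2 intensity over the 6 arrays among 6837 other genes, as a description. IL10RA was nearest to PEA15, ATP6V0A1 and BHLHE40 (each r = 0.99). BHLHE40 had 220, 230 and 420 with enzastaurin, against 66.2, 51.9 and 76.1 untreated. IL6R was nearest to HMGXB3 (0.99), FUT3 and PGLYRP4 (0.98 each), whose highest value was also that of untreated cells at 6 h. IL2RG was nearest to DYRK4, TMEM222 and RNF10 (0.98 each), which were lowest in untreated cells at 3 h.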

How the data were processed

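MM.1S cells were profiled on 6 Affymetrix arrays from total RNA turned into biotin-labelled cRNA, per the labels' protocols. The authors deposited linear intensity values, which the submitters' processing notes credit to MAS5. The sources used here do not give its version, the scaling target or detection calls. All 6 columns were matched through sample labels.

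Of 22277 probe sets 62 were controls, 19064 had 1 symbol, 1043 several and 2108 none listed. Symbols were updated through Entrez identifiers (19052 found in RefSeq, GRCh38.p14). Promoter windows are RefSeq's.

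Intensities were floored at 1 and log2 transformed, keeping the authors' scaling. limma 3.58.1 in R 4.3.3 was fitted to 11108 probe sets with time as a block and an intensity trend, and p-values were adjusted by Benjamini-Hochberg. The treatment fit has 2 residual degrees of freedom and a prior of 9.41, with fewer residual ones when the ribosomal RNA term is added. For the slope the prior was infinite. The fits were tested on simulated data with independent noise on each array. That simulation held none of the array quality differences described above, so it does not cover them. Nothing in the labels says that arrays came from separate cultures, so a p-value reflects only how these arrays vary, possibly for technical reasons. The number of arrays limits the precision. In bulk RNA, fewer cells and less RNA per cell cannot be told apart.

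The receptor chains and lists were chosen with earlier results of these data known. Beyond the 10 chains, each list gave up to 4 genes, those with the largest mean ratio, with the nearest patterns of IL6R, IL10RA and IL2RG. IFNAR2, IFNGR2, JAK1, LIFR, OSMR, IL11RA, IL27RA, CNTFR, IL6 and IL10 were named for their role, after their values had been seen. SDC1, TNFRSF17 and IRF4 were named because they were called in the later pairs. The fit of the later pairs is the one that leaves out 3 h, and its own alternatives were added after seeing the data.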

Additional observations from a re-analysis of the deposited data

Results flagged for a closer look

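The effect of enzastaurin differed between times by the slope test for IL6ST 204864_s_at (1.33 log2 units per doubling of hours), STAT4 (1.99, SE 0.38, adjusted p = 7.25e-05 in limma) and PTPN6 (-2.05, SE 0.38, adjusted p = 3.48e-05 in limma).

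Ratios of opposite sign at different times were seen, without a test of the difference at single pairs of arrays, on 8 receptor probe sets. The highest minus the lowest log2 ratio was 2.65 for IL6ST 204864_s_at, 2.01 for 212196_at and 1.07 for 212195_at. For IFNGR1 it was 1.87 on 211676_s_at and 1.41 on 202727_s_at. For IL21R it was 2.52 on 219971_at and 1.22 on 221658_s_at, and for IL6R 0.61 on 205945_at. In IL6ST and IFNGR1 the 3 h ratio was below 0 and both later ones above it, and in IL21R the 6 h ratio alone was above 0. With 1 array on each side such a difference has no replicate check.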

How the results depend on the processing

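No receptor probe set was called across the 3 times under 10 of 12 alternatives, and IL10RA was the 1 call with the ribosomal RNA covariate. Leaving out a pair gave 0 to 3 receptor calls. The 3 came without the 3 h pair, and settings added after seeing the data gave 5 there with no filter, 7 with quantile normalization or with equal medians, and 2 with 1 probe set per gene (fewer tested) or without the intensity trend, which lost IL6ST 204864_s_at. The cause was not tested. Over all probe sets the 1 call became 0 with no filter or without the intensity trend, 4 with 1 probe set per gene or equal medians, 3 without time in the fit, 76 with the covariate and 0 to 352 without a pair. The 181 slope calls became 39 with no filter, 98 with 1 probe set per gene (fewer tested), 67 with quantile normalization, 15 with equal medians and 32 without the trend. The 1 receptor slope call became 0 in each of these. Receptor probe sets at least 2-fold higher at 6 h numbered 3, against 5, with log2(intensity + 32), which shrinks dim ratios by construction. IL6R turned within the later pairs with quantile normalization (0.032). With a pair left out, mean ratios turned sign for IL6R (-0.074 to 0.23), IL15 (-0.14 to 0.27), the untested IL21R (-0.41 to 0.20), IL11 (-0.30 to 0.42), RHBDF2 (-1.17 to 0.24) and ADAM17 (-0.28 to 0.073). The pair concerned was 3 h for IL6R and ADAM17, 6 h for IL15, 12 h for RHBDF2, and 3 h or 12 h for IL11 and IL21R. No comparison between 12 h and 3 h was called under 5 alternatives. Dim probe sets (IL21R, IFNAR1) limit what their ratios show.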
